A study of Mus musculus with 3 samples.

Results

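Expression of 10 antiviral genes of the type I and type III interferon response was examined in single-cell RNA sequencing of mouse intestinal epithelium. The 10 genes, Ifit1, Ifit3, Ifit1bl1, Isg15, Rsad2, Ddx60, Trim30a, Apol9a, Irf7 and Oasl2, were matched by symbol among the 51912 genes of the deposited tables, and all 10 were found. The set was chosen by values of these same libraries, the UMIs of the genes in the kept cells, with levels per cell and per library already known. Their levels are therefore given as a description, without p-values. Of the 3 libraries, 2 came from Arid3a conditional knockout mice (Arid3a cKO: VillinCreERT2 with Arid3a fl/fl) and 1 from a control that carries VillinCreERT2 alone (WT). Villin drives the tamoxifen-activated Cre in epithelial cells of the intestine, so the floxed gene is removed there and not in other tissues. Mice of both genotypes were given tamoxifen at 8 to 10 weeks of age and harvested 1 month after the first injection. Crypts were dissociated, and living Epcam-positive cells without CD45 (the pan-leukocyte protein) and CD31 (an endothelial protein) were sorted for 10x Genomics 3′ libraries, in which each captured transcript carries a unique molecular identifier (UMI). Only 1 WT library was analysed here, so every difference between genotypes rests on that single library.

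Interferons are secreted proteins that cells release when they sense viral nucleic acid. Type I interferons bind the receptor of Ifnar1 and Ifnar2 on most cells, whereas type III interferons (interferon lambda) bind Ifnlr1 and Il10rb, a receptor found mainly on epithelium. Both receptors act through the kinases Jak1 and Tyk2 on STAT proteins, which join Irf9 to form the factor ISGF3, and ISGF3 switches on antiviral genes. Type II interferon (Ifng) acts through Ifngr1 and Ifngr2 and is known for raising antigen presentation genes.

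Following the limits of the study, barcodes with fewer than 1000 detected genes or over 15% mitochondrial UMIs were removed. This left 5594 of 25554 barcodes (21.9%), between 1550 and 2134 per library, with 58169310 to 70922480 UMIs. The limits kept 31.2%, 22.5% and 16.2% of the barcodes of Arid3a cKO 1, Arid3a cKO 2 and WT. The share removed was thus largest in WT but also differed between the cKO libraries. A median of 29895 to 35764 UMIs was held per cell. Levels are given in CPM, the UMIs of a gene per 1000000 UMIs of the same cells, with exact Poisson intervals at the 95% level that cover counting error only. Where 3 values stand without names, the first belongs to Arid3a cKO 1, the second to Arid3a cKO 2 and the last to WT. Because UMIs are summed over cells, fewer positive cells and less RNA per cell cannot be told apart from a CPM value alone. The libraries shared at most 2 barcodes among kept cells. Arid3a itself was at 0.592, 0.894 and 2.57 CPM, from 42, 52 and 161 UMIs. Epcam was detected in at least 99.5% of kept cells of each library. Of 18 immune marker genes, 14 had a UMI in each cKO library and 16 in WT, and their summed level was 4.29, 20.1 and 35.5 CPM. The plasmacytoid dendritic cell gene Siglech was at 0 UMIs in every library. The immune signal was thus highest in WT but also differed widely between the cKO libraries, and its part in the results was not tested.

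The members lie on 7 chromosomes and are all protein-coding (GENCODE M21 annotation of GRCm38, matched by gene identifier). The 3 Ifit genes are neighbours on chromosome 19, within 66.5 kb. These are Ifit3 (ENSMUSG00000074896, 34583531 to 34588731, plus strand), Ifit1bl1 (ENSMUSG00000079339, 34592891 to 34601956, minus strand) and Ifit1 (ENSMUSG00000034459, 34640871 to 34650009, plus strand). Trim30a (ENSMUSG00000030921, 104409025 to 104465193) and Irf7 (ENSMUSG00000025498, 141262706 to 141266481) are both on the minus strand of chromosome 7. Isg15 is on chromosome 4 (ENSMUSG00000035692, 156199424 to 156200818, minus strand), Oasl2 on chromosome 5 (ENSMUSG00000029561, 114896936 to 114912234, plus strand) and Ddx60 on chromosome 8 (ENSMUSG00000037921, 61928087 to 62038244, plus strand). Rsad2 is on chromosome 12 (ENSMUSG00000020641, 26442746 to 26456452, minus strand) and Apol9a on chromosome 15 (ENSMUSG00000057346, 77403789 to 77411135, minus strand).

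ISGF3 binds the interferon-stimulated response element, whose core was searched here as GAAA, any 2 bases and GAAA, on both strands of RefSeq promoter windows of GRCm38.p6. Each window holds 250 bases before and 50 bases after a transcription start. All 10 members had a window, and 8 of them held the core, against 3.99% of the 27025 genes with a window (1079 genes). The 8 matching stretches are shown in the direction of the gene, 5′ to 3′. The core was not used to choose the members. They were, however, taken as interferon-response genes, so this share is no independent support for that name. Capitals mark the core, which reads TTTC, 2 bases and TTTC where it lies on the opposite strand.
Ifit1, chr19:34640765-34640833, plus strand: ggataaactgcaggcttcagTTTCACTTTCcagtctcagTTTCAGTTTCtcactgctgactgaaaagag
Ifit3, chr19:34583353-34583436, plus strand: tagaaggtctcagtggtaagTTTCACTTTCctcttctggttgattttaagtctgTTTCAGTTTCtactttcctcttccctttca
Ifit1bl1, chr19:34602043-34602092, minus strand: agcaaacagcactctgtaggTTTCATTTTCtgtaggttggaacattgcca
Isg15, chr4:156200855-156200916, minus strand: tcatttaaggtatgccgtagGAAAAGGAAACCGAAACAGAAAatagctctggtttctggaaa
Rsad2, chr12:26456543-26456592, minus strand: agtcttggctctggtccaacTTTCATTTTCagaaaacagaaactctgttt
Ddx60, chr8:61928014-61928097, plus strand: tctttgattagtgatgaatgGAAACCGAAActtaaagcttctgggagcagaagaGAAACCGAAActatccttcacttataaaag
Trim30a, chr7:104465200-104465249, minus strand: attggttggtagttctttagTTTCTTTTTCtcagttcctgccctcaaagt
Apol9a, chr15:77411104-77411159, minus strand: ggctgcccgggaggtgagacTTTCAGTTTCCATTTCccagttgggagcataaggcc
Isg15 held 3 overlapping matches, whose first bases lie 78, 72 and 66 bases before the start. Those of Ifit1 begin 104 and 85 bases before the start, those of Ifit3 156 and 122 bases before it, those of Ddx60 53 and 19 bases before it, and those of Apol9a overlap and begin 59 and 53 bases before it. Ifit1bl1, Rsad2 and Trim30a have a single match in the stretch shown. The windows of Irf7 and Oasl2 held no match, and 200 bases around their starts are given for comparison.
Irf7, chr7:141266375-141266574, minus strand: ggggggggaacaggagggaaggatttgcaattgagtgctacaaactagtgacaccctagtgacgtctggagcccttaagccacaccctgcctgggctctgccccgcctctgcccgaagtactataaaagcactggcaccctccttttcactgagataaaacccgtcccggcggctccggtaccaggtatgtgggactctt
Oasl2, chr5:114896784-114896983, plus strand: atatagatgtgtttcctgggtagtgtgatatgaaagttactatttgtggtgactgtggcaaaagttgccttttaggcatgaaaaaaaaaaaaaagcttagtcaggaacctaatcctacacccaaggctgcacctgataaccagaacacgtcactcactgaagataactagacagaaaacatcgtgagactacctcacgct
The absence of these letters concerns this window only. In 4 lists taken up below, the core was found in 13 of 33 other ISGF3 targets with a window, 4 of 10 interferon genes, 3 of 14 nucleic acid sensors and 11 of 21 type II interferon targets. A match describes the letters of a window and does not show binding.

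The sequencing reads the 3′ end of a transcript, where some members resemble a relative. Of the 50-base windows in the last 500 bases of Apol9a transcripts, 52.6% also occur in Apol9b, so the level of Apol9a is uncertain. For Ifit3 and Ifit3b this share was 14.9%, and for Ifit1bl1 and Ifit1bl2 it was 9.09%. The 3′ ends of Ifit1, Trim30a and Oasl2 shared no such window with Ifit1bl1, Ifit1bl2, Trim30d or Oasl1. In the other direction, 16.7% of the windows in the 3′ ends of Trim30d occur in Trim30a, and 65.9% of those of Apol9b in Apol9a. The level of Trim30a is therefore uncertain as well.

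Over all kept cells the members were detected at low levels in each library, and most were highest in WT. Ifit1, which binds viral RNA that lacks the cap of host messages, was at 9.76 CPM in Arid3a cKO 1 (692 UMIs, 9.04 to 10.5), 8.85 CPM in Arid3a cKO 2 (515 UMIs, 8.11 to 9.65) and 17.4 CPM in WT (1089 UMIs, 16.4 to 18.4). WT was well above both cKO libraries, which lay close together with overlapping intervals. The mean of the cKO libraries was 0.536 times WT.

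Ifit3, a partner of Ifit1, did not follow it. Its levels were 4.99, 4.42 and 4.77 CPM (354, 257 and 299 UMIs), with overlapping intervals throughout. Ifit1bl1, a paralogue of Ifit1, was at 4.30 CPM (3.83 to 4.81), 8.63 CPM (7.89 to 9.42) and 10.9 CPM (10.1 to 11.7). Here Arid3a cKO 2 was closer to WT than to Arid3a cKO 1. The 3 neighbouring Ifit genes therefore had 3 different patterns over the libraries.

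Among the antiviral effectors, Oasl2, a relative of the oligoadenylate synthetases, was at 12.1 CPM in Arid3a cKO 1 (11.3 to 12.9), 11.4 CPM in Arid3a cKO 2 (10.5 to 12.3) and 16.5 CPM in WT (15.5 to 17.5). As for Ifit1, the cKO libraries overlapped each other and not WT. Rsad2 (viperin), an enzyme that makes a chain-terminating nucleotide, was at 4.03, 4.74 and 6.43 CPM, and Trim30a, a TRIM-family ubiquitin ligase, at 3.21, 3.34 and 4.75 CPM. For both genes the WT interval lay above those of the cKO libraries (5.82 to 7.09 against at most 5.34 for Rsad2, and 4.23 to 5.32 against at most 3.84 for Trim30a).

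The other members differed less. Isg15, a ubiquitin-like modifier, was at 26.2, 27.6 and 29.0 CPM (1860, 1605 and 1817 UMIs), and only Arid3a cKO 1 had an interval below that of WT. Ddx60, a helicase induced by interferon, was at 13.4, 16.0 and 16.3 CPM, with Arid3a cKO 2 and WT overlapping. Apol9a, of the apolipoprotein L family, was at 2.74, 4.06 and 4.31 CPM, again with Arid3a cKO 2 close to WT. Irf7, the transcription factor that amplifies type I interferon production, was at 27.0, 24.7 and 26.4 CPM, so WT lay between the cKO libraries.

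**Figure D1:**
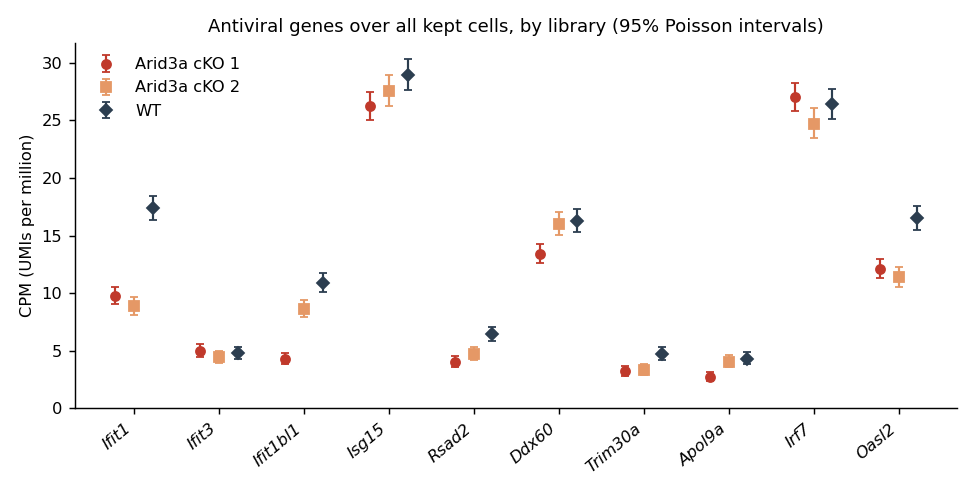
Level of each antiviral gene over all kept cells in CPM (y axis, linear from 0) by gene (x axis) and library (colour and symbol), with exact 95% Poisson intervals for counting error. Ifit1 and Oasl2 of WT (17.4 and 16.5 CPM) stand clear of both cKO libraries, whereas for Ifit3 and Irf7 WT lies between them.

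As a common measure, log2 ratios of CPM + 5 in each cKO library to WT were taken, a scale that understates differences of genes near 5 CPM. The mean of both ratios ran from -0.65 for Ifit1 to -0.01 for Ifit3, with a median of -0.20 over the 10 members (-0.26 for Arid3a cKO 1 and -0.15 for Arid3a cKO 2). With equal weight to each of the larger cell classes described below, Ifit1 (-0.41), Ifit1bl1 (-0.05, from -0.50) and Trim30a (-0.17, from -0.24) differed less. Rsad2 (-0.43, from -0.28), Apol9a (-0.38, from -0.15) and Oasl2 (-0.49, from -0.36) differed more, and the median was -0.17. Without the 1% of cells with the most member UMIs, Ifit1 was at -0.47, Isg15 at -0.15 (from -0.09) and the median at -0.17. WT was above both cKO libraries for 8 of 10 members and between them for 2, which compares with 43.9% of all 16670 genes tested. With edgeR's quasi-likelihood test on UMIs summed per library, 1 member (Ifit1) was called lower in cKO at an adjusted p under 0.05 and 0 were called higher, against 0.456% of all genes called lower and 0.24% called higher. DESeq2 called Ifit1 as well, and at an unadjusted edgeR p under 0.05 there were 5 members lower and 0 higher, against 5.46% and 5.54% of all genes. These calls are a description, since the members were chosen with values of this comparison known. The direction did not hold in the barcodes removed for over 15% mitochondrial UMIs. Their median, in CPM of UMIs that are not mitochondrial, was 0.17, with -0.03 for Arid3a cKO 1 (5 of 10 members above WT) and 0.29 for Arid3a cKO 2 (9 of 10 above WT).

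The members were unevenly spread over the cell types. Clusters were formed without the members and the other interferon genes and were named from marker lists. Enterocyte-like cells, the absorptive cells of the villus, formed 3 clusters, here cluster 1 (974 cells, led by Dnase1, Bst1 and Selenop), cluster 2 (767 cells, with Ms4a18 and Il18) and cluster 5 (528 cells, with S100g and Akp3). ISC-like cells (intestinal stem cells) and TA-like cells (transit-amplifying, dividing progenitors) formed clusters 0 and 4. Goblet-like, enteroendocrine-like, tuft-like and Paneth-like cells formed clusters 6, 7, 8 and 9. Clusters 3 and 10 reached too few markers of any class and stayed unnamed. Cluster 3 held 16.2%, 12.7% and 10.7% of the cells of the 3 libraries, and cluster 10 held 0.656%, 0.645% and 1.41%.

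Enterocyte-like cells carried more of every member than ISC- and TA-like cells in every library. For Ifit1 the enterocyte level was 22.6, 19.4 and 42.5 CPM, and the level in ISC- and TA-like cells was 1.33, 0.428 and 1.62 CPM. This is a ratio of 17.1, 45.3 and 26.2. Oasl2 (5.01, 4.56 and 3.10), Irf7 (4.80, 5.14 and 5.01) and Ifit1bl1 (4.72, 5.71 and 7.21) had smaller ratios. In ISC-like cells Irf7 still reached 7.54, 6.99 and 8.33 CPM, whereas Trim30a and Apol9a were below 1 CPM in every library, from 4 to 8 UMIs each.

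Within the enterocyte-like cells, cluster 1 held the highest levels for most members. Isg15 was at 87.5, 97.3 and 88.8 CPM there, against 30.6, 22.0 and 32.4 CPM in cluster 2. Ddx60 was at 44.5, 44.6 and 45.4 CPM in cluster 1 and at 9.72, 9.45 and 13.7 CPM in cluster 2. Both genes thus differed several-fold between these enterocyte clusters in all 3 libraries, with intervals far apart.

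The secretory cells each expressed a different subset. Tuft-like cells, chemosensory cells that number 27 to 51 per library, had the highest Irf7 levels of any cluster, at 166 CPM in Arid3a cKO 1 (118 UMIs), 105 CPM in Arid3a cKO 2 (59 UMIs) and 142 CPM in WT (116 UMIs). They also had the highest Oasl2 levels, at 52.0, 33.9 and 71.0 CPM. Without the leading cell of each library, their Oasl2 intervals were 29.9 to 62.5, 19.7 to 52.5 and 43.8 to 78.7 CPM. Only that of WT was clear of cluster 1 treated alike (28.6 to 35.4, 24.1 to 31.0 and 27.6 to 34.7 CPM). Isg15 stood at 88.5, 91.1 and 91.8 CPM in tuft-like cells, but without the leading cell of each library it was at 46.8, 46.1 and 81.6 CPM, against 79.7, 88.7 and 80.8 CPM in cluster 1 treated alike. Yet Ifit3 had 1, 0 and 1 UMIs in the same cells, against 22.3, 20.3 and 14.5 CPM in cluster 1. The 0 UMIs of Arid3a cKO 2 allow up to 5.36 CPM (3 UMIs), and the upper interval bounds of the other libraries were 7.83 and 6.82 CPM, all below the lowest bound of cluster 1 (12.3 CPM).

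Goblet-like cells, which secrete mucus, showed the same gap at Ifit3. They had 2, 1 and 1 Ifit3 UMIs (0.701, 0.274 and 0.262 CPM), while Isg15 was at 28.4, 51.0 and 47.4 CPM and Ddx60 at 29.8, 52.7 and 53.6 CPM. Much of this in Arid3a cKO 2 came from a single cell, which held 116 of 186 Isg15 UMIs, 71 of 102 Ifit1bl1 UMIs, 43 of 64 Ifit1 UMIs and 64 of 192 Ddx60 UMIs but 1 Ifit3 UMI. Without the cell with the most member UMIs in each library, Isg15 was at 24.2, 19.4 and 41.4 CPM and Ddx60 at 27.8, 35.5 and 46.2 CPM. WT was then above both cKO libraries for both genes, with an interval that overlapped that of Arid3a cKO 2 for Ddx60 (39.6 to 53.5 against 29.6 to 42.2), and Ifit3 stayed at 2, 0 and 1 UMIs.

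In enteroendocrine-like cells, the hormone-secreting cells, Rsad2 was at its highest, at 20.3 CPM in Arid3a cKO 1 (17 UMIs, 11.8 to 32.5), 21.0 CPM in Arid3a cKO 2 (17 UMIs, 12.2 to 33.6) and 43.9 CPM in WT (65 UMIs, 33.9 to 56.0). Only in WT was this clear of the next cluster, the tuft-like cells (20.8 CPM, 12.1 to 33.3). Without the leading cell of each library the levels were 10.9, 20.7 and 33.5 CPM. WT then overlapped Arid3a cKO 2 and the tuft-like cells (21.0 CPM), and in Arid3a cKO 1 the goblet-like cells were higher (15.7 CPM). Isg15 was at 2.39, 7.41 and 6.76 CPM in these cells, lower than in the other secretory classes except Paneth-like cells. Trim30a had 0 UMIs in all 174 enteroendocrine-like cells, where 3 UMIs would be 3.58, 3.71 and 2.03 CPM. Enteroendocrine-like cells made up 2.11%, 2.77% and 4.50% of the kept cells. They held 17 of 286, 17 of 276 and 65 of 403 Rsad2 UMIs. The part of this in the Rsad2 levels over all kept cells was not tested.  Paneth-like cells (17 to 34 per library), the antimicrobial cells of the crypt base, had at most 4.29 CPM of any member, with a median of 130961 UMIs per cell. No cell class that must lack these genes could be defined, so no background level was set.

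**Figure D2:**
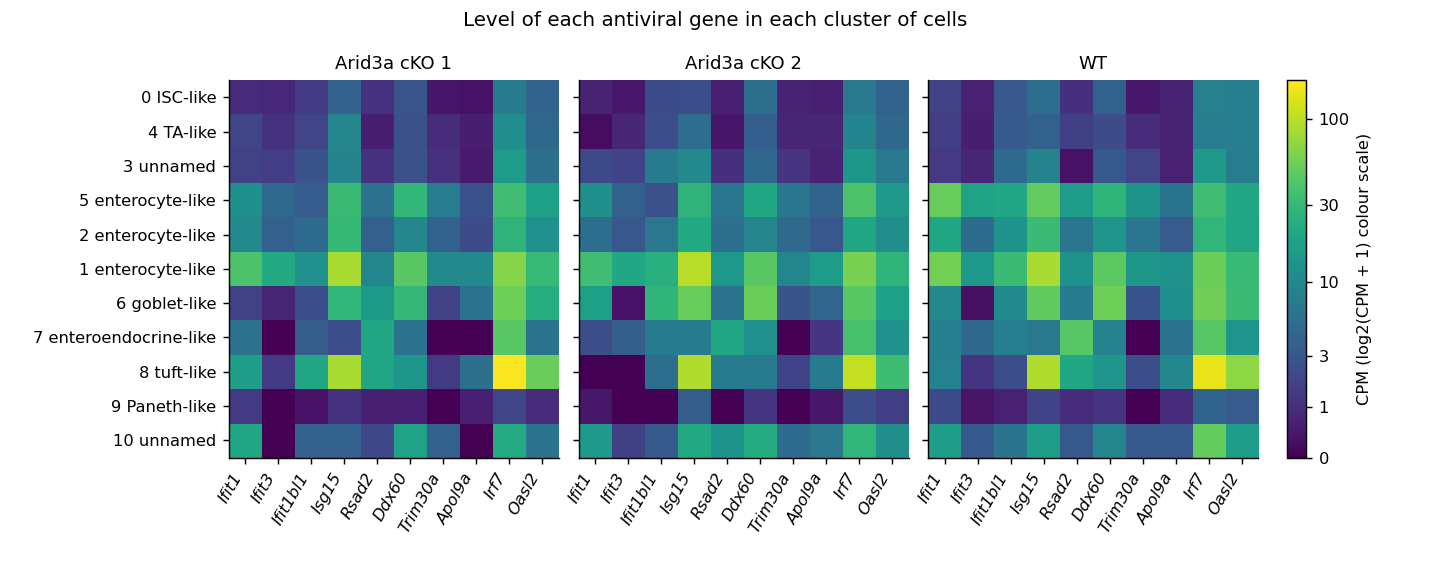
Level of each antiviral gene (columns) in each cluster of cells (rows) for each library (panels), as CPM on a log2(CPM + 1) colour scale. Cluster 1 and the tuft-like cells are brightest, Ifit3 is near 0 in goblet- and tuft-like cells that are bright for Isg15 and Irf7, and the ISC-, TA- and Paneth-like rows are dark for most genes.

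The spread of a member over single cells differed between members as well. The 1% of cells with the most UMIs of Ifit3 held 63.3%, 62.3% and 53.5% of its UMIs. For Ifit1bl1 these shares were 54.4%, 63.1% and 56.0%, and for Ifit1 46.2%, 53.0% and 47.5%. By contrast, the top 1% of cells held 12.2%, 10.7% and 10.6% of Irf7 UMIs and 18.9%, 16.2% and 16.2% of Oasl2 UMIs. Irf7 and Oasl2 were thus the most evenly spread of the 10 in every library, and the Ifit genes and Rsad2 (43.9% to 54.2%) among the most concentrated.

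Individual cells with many member UMIs held different mixtures. The cell with the most member UMIs in WT, an enterocyte-like cell of cluster 1, had 69 Ifit1, 12 Ifit3, 78 Ifit1bl1 and 82 Isg15 UMIs among its 32837 UMIs. The second, of cluster 5, had 94 Ifit1, 52 Ifit3, 17 Ifit1bl1 and 34 Isg15 UMIs. In Arid3a cKO 1 the leading cell had 57 Ifit1 and 88 Isg15 UMIs with 3 Ifit3 and 0 Ddx60 UMIs, and the second had 68 Ifit3 UMIs with 24 Ifit1 UMIs. Cells of this kind were found in both genotypes.

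To compare the number of members per cell at equal depth, each cell was thinned to 10000 UMIs, which left out 111 to 137 shallower cells per library. After thinning, 40.1%, 44.3% and 49.6% of cells had a UMI of at least 1 member. At least 3 members were found in 7.56% (151 of 1997 cells, 6.44 to 8.81% by the exact binomial method), 9.17% (132 of 1439, 7.73 to 10.8%) and 9.95% (178 of 1789, 8.60 to 11.4%). WT was highest, but its interval overlapped both others, and the mean difference of -1.58 percentage points lay within the distance that separated Arid3a cKO 1 from Arid3a cKO 2. That did not hold in most other settings. With at most 10% mitochondrial UMIs the shares were 6.45%, 6.89% and 9.53%, and without the 5% of cells with the highest Scrublet scores (a measure of doublets) 7.14%, 7.16% and 8.85%, so that WT was further from each cKO library than these were from each other. All 10 members were found in 2, 2 and 3 cells. Unthinned, the shares with at least 3 members were 22.5%, 26.6% and 29.4%.

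Cells with at least 3 members were mostly enterocyte-like, with 81.5%, 81.8% and 74.2% in that class, against 37.9%, 38.0% and 37.2% of cells with fewer. Cluster 1 alone gave 56.3%, 57.6% and 48.9% of them. In that cluster 23.7%, 28.5% and 26.9% of cells had at least 3 members, with WT between the cKO libraries. In cluster 5 the shares were 9.32%, 11.5% and 16.1%, in goblet-like cells 15.2%, 11.6% and 23.6%, and in ISC-like cells 0%, 0.369% and 0.836%, with overlapping intervals in each case. The share of 0.369% is 1 cell, the cell with stromal transcripts described below. The 0 of 428 ISC-like cells in Arid3a cKO 1 allow a share of up to 0.701% (3 cells).

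Mitochondrial UMIs were more frequent in the cells with at least 3 members (a median of 5.89%, 4.79% and 6.33%, against 4.51%, 3.91% and 5.36% in the other cells), and the part of this in the results was not tested. In the cells with at least 3 members the 18 immune genes summed to 4.69, 2.12 and 2.89 CPM, against 1.02, 0.939 and 4.26 CPM in the other cells, so they were higher in these cells in the cKO libraries and lower in WT. Both sums leave out the cells under 10000 UMIs, which held most of the immune UMIs of each library. Their part in the results was not tested. Cd3e (T cells), Cd79a (B cells), Csf1r (macrophages) and Siglech had 0 UMIs in the cells with at least 3 members in all 3 libraries, and at most 8 UMIs each in the other cells of a library. Epcam was detected in 100% of them. Ptprc, the gene of CD45, had 21, 5 and 10 UMIs there and 26, 9 and 17 UMIs in the far more numerous other cells. In Arid3a cKO 2, 1 cell with 1 Epcam UMI held 222 of the 247 stromal marker UMIs of the library. It lay in the ISC-like cluster and counted among the cells with at least 3 members, with 8 member UMIs before thinning.

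Members were found together in cells. In cells with an Isg15 UMI after thinning, Ifit1 was detected in 19%, 16.9% and 17.7% of cells, against 3.36%, 4.22% and 6.62% of cells without one. For Apol9a these shares were 8.06%, 14.2% and 14.9% against 1.16%, 3.11% and 2.47%. Irf7 showed a smaller contrast, with 37.7%, 41.0% and 41.8% against 16.4%, 18.3% and 19.3%. Across kept cells the correlation of log-scaled levels within a library, averaged over the 3 libraries, ran from 0.196 for Rsad2 and Trim30a to 0.585 for Ifit1 and Ifit1bl1, with a median of 0.363 over the 45 pairs. These are descriptions over 1550 to 2134 cells per library that share depth and cell type, and Ifit1 and Ifit3 (0.549) and Ifit1 and Isg15 (0.553) were the next closest pairs.

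**Figure D3:**
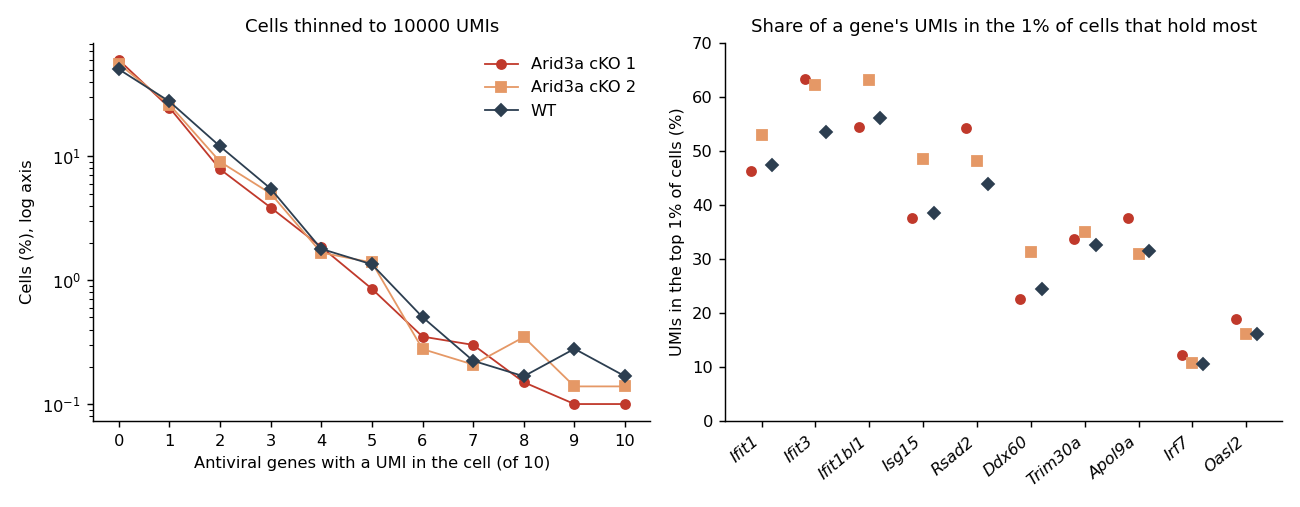
Left, percent of cells (log axis) by the number of the 10 antiviral genes with a UMI after thinning to 10000 UMIs, one line per library. Right, percent of a gene's UMIs (linear axis) found in the 1% of cells with most of them. The lines of the 3 libraries run close together and reach 10 genes in 2, 2 and 3 cells, and Irf7 and Oasl2 lie lowest on the right.

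Among all other genes with at least 200 UMIs (12131 genes), those whose level tracked the number of members per cell most closely were Ifi27l2b (mean within-library correlation 0.560), an interferon-induced gene, and then Apoa4 (0.502), Gda, Spink1, Guca2b, Pls1, Cdhr5, Krt20, Apoa1 and Clec2h (0.489). The list holds mature enterocyte genes, such as the apolipoproteins Apoa4 and Apoa1, the keratin Krt20 and the brush border genes Pls1 and Cdhr5. Ifi27l2b was at 808, 897 and 783 CPM over all kept cells, and 0 of these 10 genes passed the test between genotypes (edgeR, adjusted p from 0.347 to 0.837).

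The difference between genotypes was then followed by cell type. Over enterocyte-like cells the median log2 ratio was -0.18 (-0.22 for Arid3a cKO 1 and -0.15 for Arid3a cKO 2). WT was above both cKO libraries for 8 of 10 members, against 35.6% of the 12649 genes tested. The gap was widest for 3 members, as Ifit1 was at 22.6, 19.4 and 42.5 CPM, Ifit1bl1 at 7.77, 13.3 and 22.8 CPM and Trim30a at 7.25, 7.32 and 11.3 CPM. These 3 members were called lower in cKO by edgeR and 0 were called higher, against 1.62% of genes called lower and 1.03% called higher. DESeq2 called Ifit1 alone. Irf7 was the exception in direction, at 44.6, 41.5 and 40.2 CPM.

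The 3 enterocyte-like clusters differed among themselves. In cluster 2 WT was above both cKO libraries for all 10 members, against 37.4% of the 12649 genes tested in enterocyte-like cells, with a median log2 ratio of -0.29. Ifit1 was at 10.2 CPM (8.35 to 12.3), 5.42 CPM (3.86 to 7.41) and 21.0 CPM (18.0 to 24.3) there. Without the cell with the most member UMIs in each library, Ifit1 was at 9.46, 5.45 and 16.7 CPM. The WT interval was then clear of both cKO libraries for Ifit1, Ifit1bl1 and Oasl2 alone. Isg15 was at 27.7, 21.1 and 27.9 CPM, Irf7 at 27.2, 19.4 and 27.7 CPM and Apol9a at 2.32, 2.66 and 3.17 CPM. In cluster 1 the median was -0.04, and WT was above both for 4 members (36.3% of the same genes), between them for 4 and below both for 2. Those 2 were Irf7, at 65.7, 59.6 and 52.5 CPM, and Ifit3, at 22.3, 20.3 and 14.5 CPM, where the WT interval (12.3 to 17.1) lay below both others (19.6 to 25.3 and 17.4 to 23.4). Without the cell with the most member UMIs in each library, Ifit3 was at 22.1 CPM (19.4 to 25.1), 14.7 CPM (12.3 to 17.4) and 13.4 CPM (11.2 to 15.9). Arid3a cKO 2 and WT then overlapped, since the cell left out of Arid3a cKO 2 held 51 Ifit3 UMIs. In Arid3a cKO 1 another cell of this cluster held 68 Ifit3 UMIs.

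Cluster 5 had the widest gap, with a median of -0.60. Ifit1 was at 12.3, 12.1 and 51.3 CPM, Ifit3 at 4.79, 3.96 and 18.4 CPM and Ifit1bl1 at 3.45, 2.58 and 19.5 CPM. A single WT cell held 94 of 223 Ifit1 UMIs and 52 of 80 Ifit3 UMIs. Without the cell with the most member UMIs in each library, Ifit1 was at 12.0 CPM (9.18 to 15.3), 7.97 CPM (5.69 to 10.9) and 29.9 CPM (25 to 35.6), and Ifit1bl1 at 3.28, 2.59 and 15.8 CPM, so that WT stayed clear of both cKO libraries. Ifit3 was then at 3.67 CPM (2.21 to 5.73), 3.19 CPM (1.82 to 5.18) and 6.50 CPM (4.32 to 9.39), with overlapping intervals. The difference of Ifit3 in cluster 5 thus rested on 1 cell.

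In ISC- and TA-like cells the median log2 ratio was -0.02, and WT was above both cKO libraries for 4 of 10 members, close to the 35.6% of the 14447 genes tested. On the scale of CPM + 5, Oasl2 differed most, at 4.30 CPM in Arid3a cKO 1 (107 UMIs, 3.52 to 5.20), 4.28 CPM in Arid3a cKO 2 (90 UMIs, 3.44 to 5.26) and 8.11 CPM in WT (185 UMIs, 6.98 to 9.37). The cKO libraries had nearly the same level, well below WT, in ISC-like cells (4.13, 3.98 and 8.16 CPM) as in TA-like cells (4.52, 4.57 and 8.05 CPM). Oasl2 was the 1 member called lower by edgeR and 0 were called higher, against 0.775% of genes called lower and 0.713% called higher, and neither DESeq2 nor edgeR with library totals in place of TMM scaling called it. The other members had 9 to 231 UMIs per library in these cells and smaller log2 ratios on the scale of CPM + 5. Without the added 5 CPM, the mean of the cKO libraries was 0.502 times WT for Rsad2, 0.529 for Oasl2 and 0.541 for Ifit1. It ran up to 1.31 times WT for Ifit3, and the median of the members' edgeR log2 differences was -0.15. The test of a difference between cell types was not run, since the members were chosen with these values known.

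**Figure D4:**
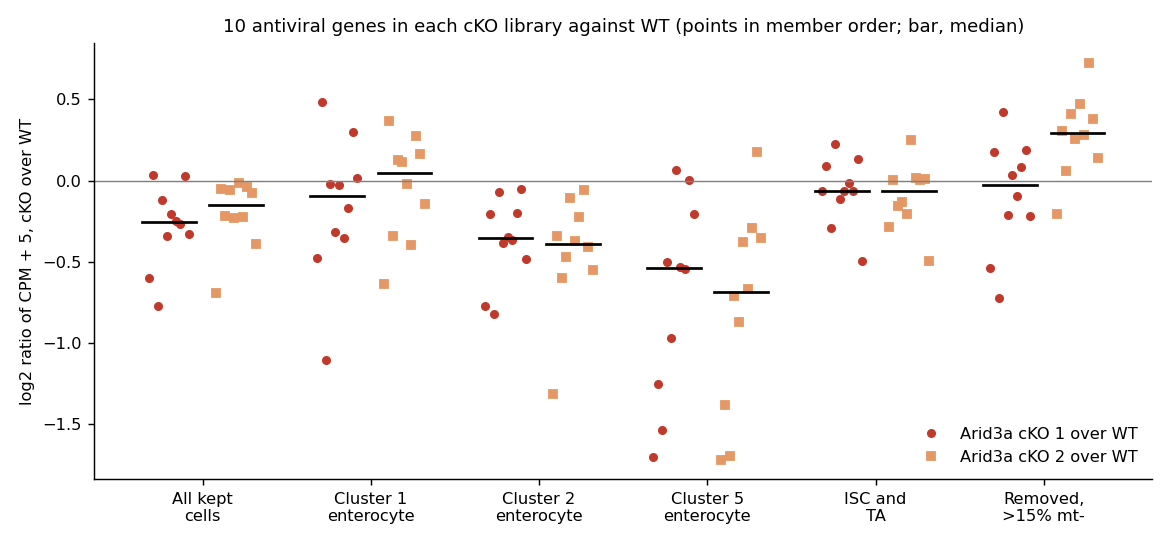
Log2 ratio of CPM + 5 in each cKO library over WT (y axis) for the 10 antiviral genes (points, in the order Ifit1, Ifit3, Ifit1bl1, Isg15, Rsad2, Ddx60, Trim30a, Apol9a, Irf7, Oasl2 from left to right) in 6 sets of cells, with the median of each library as a bar. Medians lie lowest in cluster 5 (-0.54 and -0.69), near 0 in cluster 1 and in ISC and TA cells, and above 0 for Arid3a cKO 2 in the removed barcodes, whose CPM leave out mitochondrial UMIs.

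The rest of the pathway was examined from lists. Of 10 interferon genes, Ifnb1, Ifna1, Ifna2, Ifna4, Ifna5, Ifnl2, Ifnl3 and Ifne had 0 UMIs in all 3 libraries, where 3 UMIs would be 0.0423 to 0.0516 CPM. Ifnk, a type I interferon of skin, had 2, 3 and 1 UMIs, and Ifng had 0, 2 and 3. The ligands were therefore not detectable at this depth in the sorted epithelial cells, or nearly so.

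Of the signalling genes between receptor and antiviral gene, Stat2, a subunit of ISGF3, was at 6.43, 5.98 and 10.6 CPM over all kept cells, a log2 difference of -0.73 ± 0.13 (SE, edgeR adjusted p = 0.0493). It was not called with DESeq2, library totals, the wider cell limits or Scrublet doublets left out. Stat2 was also lower in enterocyte-like cells (-0.86 ± 0.16, edgeR adjusted p = 0.0025), though not with DESeq2. Irf9, the DNA-binding subunit of ISGF3, was at 13.7, 11.7 and 16.7 CPM (-0.35 ± 0.12, edgeR adjusted p = 0.345). In ISC- and TA-like cells Irf9 was lower (-0.63 ± 0.17, edgeR adjusted p = 0.018), and it was not called there with DESeq2 or library totals.

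The receptor genes did not pass the edgeR test. Of the type III receptor, Ifnlr1 was at 3.27, 3.13 and 3.53 CPM (log2 difference -0.10 ± 0.18) and Il10rb at 46.0, 47.9 and 47.3 CPM (0.03 ± 0.10). Of the type I receptor, Ifnar1 was at 15.3, 14.0 and 15 CPM (0.00 ± 0.11) and Ifnar2 at 13.9, 13.8 and 12.0 CPM (0.24 ± 0.11). The type II receptor genes Ifngr1 (112, 112 and 88.4 CPM) and Ifngr2 (146, 150 and 114 CPM) had log2 differences of 0.38 ± 0.09 and 0.42 ± 0.09 and did not pass (edgeR adjusted p = 0.149 and 0.102), though both were called higher without the filter on low counts and Ifngr2 also without the 5% of cells with the highest Scrublet scores.

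Of the kinases, Jak1 (57.8, 57.3 and 59.7 CPM), Jak2 (31.2, 31.5 and 34.7 CPM) and Tyk2 (9.73, 8.68 and 9.57 CPM) had log2 differences between -0.11 and -0.01. The negative regulators Socs1 (5.30, 4.14 and 4.18 CPM), Socs3 (8.70, 5.54 and 6.99 CPM), Pias1 (11.9, 10.7 and 12.8 CPM) and the phosphatase gene Ptpn6 (16.4, 14.6 and 18.4 CPM) had differences between -0.21 and 0.21. None of these 7 genes was called by edgeR in any of the 3 sets of cells.

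The list of 47 other ISGF3 targets had 45 genes tested over all kept cells, of which 1 was called lower and 0 higher, with a median log2 difference of -0.27 against -0.003 over all genes. The gene called was Zbp1, a sensor of nucleic acid in the Z form that starts cell death, at 9.97, 10.1 and 21.2 CPM (-1.05 ± 0.11, edgeR adjusted p = 0.00403). WT was above both cKO libraries for 34 of the 45 genes, 75.6%, beside 43.9% over all genes. The 3 genes of the list with the most UMIs that were not called were Ifi27l2b (0.16 ± 0.11), Ifitm3, a block to virus entry (147, 183 and 265 CPM, -0.64 ± 0.13, edgeR adjusted p = 0.0831), and Lgals3bp (0.00 ± 0.09).

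In enterocyte-like cells 7 of 43 of these genes were called lower and 1 higher. The lowest adjusted p among those lower were Zbp1 (-1.14 ± 0.11), Slfn2 (-0.89 ± 0.14), Dtx3l (-0.56 ± 0.10), Ifi44 (-1.89 ± 0.36) and Parp14 (-0.53 ± 0.10), and Ifi27 was higher (0.55 ± 0.10, edgeR adjusted p = 0.00233). With DESeq2, Zbp1 and Ifi27 alone were called. In ISC- and TA-like cells Parp14 (-0.74 ± 0.17) and Ifitm3 (-0.63 ± 0.13) were lower among 39 tested and 0 were higher, and with DESeq2 Ifitm3 alone was called.

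Of the nucleic acid sensing genes, which detect viral RNA and DNA upstream of interferon, 15 of 17 were tested and 0 were called over all kept cells, by edgeR and by DESeq2, with 2 lower and 0 higher at an unadjusted edgeR p under 0.05. WT was above both cKO libraries for 12 of the 15 genes, 80%, beside 43.9% over all genes. In enterocyte-like cells this held for 9 of 13 (69.2%) and in ISC- and TA-like cells for 9 of 15 (60%), beside 35.6% of all genes in each. Irf3 (38.7, 39.5 and 44.5 CPM, -0.15 ± 0.10), Zc3hav1 (30.7, 33.6 and 35.5 CPM, -0.11 ± 0.11) and Tbk1 (24.0, 24.2 and 29.0 CPM, -0.23 ± 0.10) had the most UMIs. In enterocyte-like cells Mavs, the adaptor of the RNA sensors, was lower (-0.60 ± 0.13, edgeR adjusted p = 0.01), 1 of 13 tested, though not with DESeq2, and in ISC- and TA-like cells 0 of 15 were called.

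Targets of type II interferon differed more. Of 28 tested over all kept cells 10 were lower and 0 higher in cKO, with a median log2 difference of -0.87, and WT was above both cKO libraries for 25 (89.3%). Cd74, the invariant chain of MHC class II, was at 55.3, 37.5 and 306 CPM (-2.68 ± 0.17, edgeR adjusted p = 0.000175). Ido1, an enzyme of tryptophan breakdown, was at 10.1, 10.2 and 32.5 CPM (-1.64 ± 0.10), the class II genes H2-Aa at 7.02, 4.18 and 36.5 CPM (-2.66 ± 0.22) and H2-Eb1 at 18.7, 12.0 and 65.6 CPM (-2.06 ± 0.19), and the immunity-related GTPase Igtp at 8.87, 5.85 and 28.2 CPM (-1.90 ± 0.19). The proteasome subunits Psmb10 (-0.13 ± 0.09) and Psmb9 (-0.40 ± 0.09) and the transcription factor Irf8 (-0.19 ± 0.12) were the genes not called with the most UMIs.

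The same list gave 15 of 24 genes lower and 0 higher in enterocyte-like cells, where Cd74 (-2.64 ± 0.10), H2-Aa (-2.58 ± 0.16), H2-Eb1 (-1.75 ± 0.11), Igtp (-2.14 ± 0.14) and H2-Ab1 (-1.80 ± 0.14) had the smallest adjusted p, and 12 lower and 1 higher of 24 in ISC- and TA-like cells. The 1 higher gene, Cxcl9, had 59 UMIs in Arid3a cKO 1 against 2 and 5 in the other libraries over all kept cells, so it rested on that library. With DESeq2 8 genes of the list were lower over all kept cells, 7 in enterocyte-like cells and 2 in ISC- and TA-like cells. The summed level of the immune markers was also highest in WT (35.5 CPM, against 4.29 and 20.1 CPM), and its part in the difference of class II genes was not tested.

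**Figure D5:**
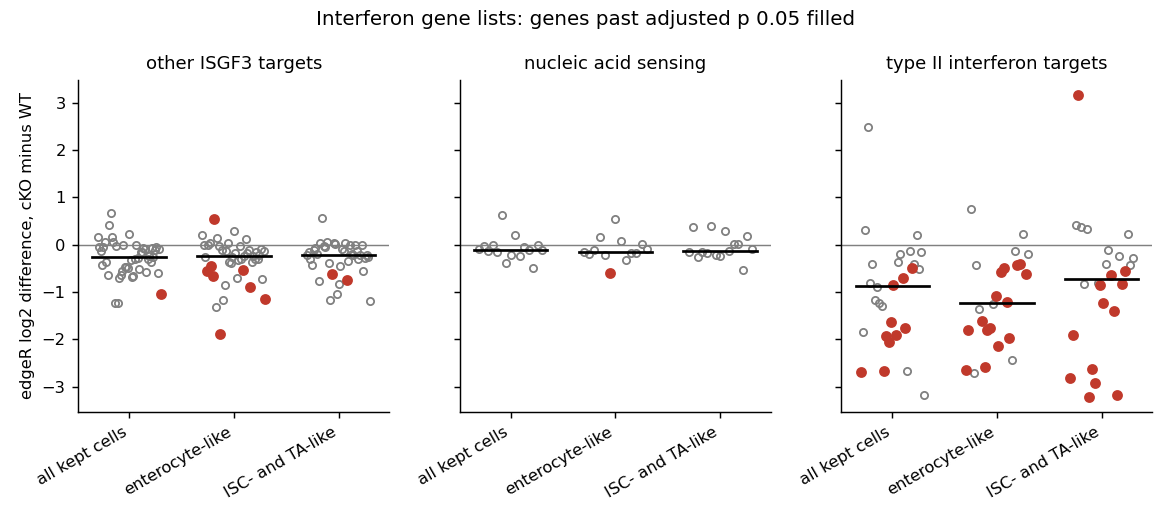
Log2 difference between the cKO libraries and WT from edgeR (y axis) for each tested gene (points) of 3 interferon gene lists (panels) in all kept, enterocyte-like and ISC- and TA-like cells, with the median as a bar and genes at an adjusted p under 0.05 filled. Type II interferon targets spread furthest below 0, with 10, 15 and 12 genes called lower, whereas the medians of the nucleic acid sensing genes lie between -0.16 and -0.11.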

How the data were processed

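Single-cell libraries, 2 of Arid3a cKO and 1 of WT epithelium, were analysed, grouped by the genotype in the labels. The authors counted reads with CellRanger 5.0.0 (per the file headers), and deposited, for each library, unnormalized UMI counts for the barcodes that CellRanger selected. The genome build used is not given in the sources used here. Of 51912 gene identifiers, 51633 (99.5%) are in GENCODE M21 (GRCm38). No deposited column of other samples was left unused.

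Cells with at least 1000 genes and at most 15% mt- UMIs were kept, with 58169310 to 70922480 UMIs per library. Scrublet (scanpy 1.11.5) marked 110 cells (1.97%), which were kept in the main analysis as no doublet step is described for the study. Cells were integrated in Seurat 5.3.0 (R 4.3.3) by canonical correlation analysis (3000 features, 2000 for the principal components, 30 components, resolution 0.3), leaving out 131 interferon and other listed genes, and gave 11 clusters. A cluster was named when at least 3 markers of a class were among its top 50 genes by fold (seen in at least 25% of its cells) and no other class led its top 10, a rule set after the clusters had been seen. The tuft-like cluster had 0.333 times the median UMIs of its own libraries, with 8 tuft markers in its top 10.

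UMIs were summed per library and tested with edgeR 4.0.16 (quasi-likelihood, TMM, filterByExpr, Benjamini-Hochberg over all genes, called at 0.05). With 3 libraries there is 1 residual degree of freedom, and the single WT library is assumed to vary like the cKO libraries. Nothing in the labels says whether libraries came from separate animals, so p-values measure at most the spread between the cKO libraries, in part shared across genes. The total degrees of freedom of the test were 8.72 over all kept cells and 19.0 in enterocytes. In ISC and TA cells they were 14447, so the spread there was in effect shared by all genes and not that of each gene. On simulated counts over all kept cells (16670 genes) the test recovered 63% of 2-fold and 89% of 4-fold changes, with 6 unchanged genes called. In ISC and TA cells (14447 genes) the figures were 71%, 86% and 10, and in enterocytes (12649 genes) 78%, 91% and 13. The simulated counts took their spread from the fit to these libraries, by level of the gene, and let WT vary like the cKO libraries. They therefore cannot check that assumption or give the number of false calls in the real data. Intervals are exact Poisson or exact binomial at 95% and, like the limit from 3 counts for a 0, cover counting error only.

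The members, gene lists and alternatives were chosen with earlier results of these data known. Named were all members, the receptor and JAK-STAT genes (1 is not reported here, nor are counts over that list), in other lists up to 5 called genes per direction with the smallest adjusted p and the 3 uncalled genes with most UMIs, and the 10 genes most alike. Values without the leading cell of a cluster and the single cells described were chosen after seeing the data. Alternatives were DESeq2 1.42.0, library totals, no filter on low counts, other cell limits, pseudocounts, denominators, weights and thinning depths.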

Additional observations from a re-analysis of the deposited data

Results flagged for a closer look

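The barcodes removed for over 15% mitochondrial UMIs numbered 1937 and 2077 in the cKO libraries and 3206 in WT. All had at least 1000 genes, with a median of 8959 to 9283 UMIs. They are no part of the kept cells. The report compares them as a set of their own and, in part, under the wider cell limits. In CPM of UMIs that are not mitochondrial, 5 members were higher there in both cKO libraries than in WT. The mean of the cKO libraries was 119 against 96.8 in WT for Irf7, 68.3 against 55.8 for Ddx60, 66.9 against 48.8 for Isg15, 20.3 against 13.6 for Apol9a and 10.8 against 8.32 for Ifit3. The share of barcodes over the limit was largest in WT but also differed between the cKO libraries, and its part in this was not tested.

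The mean log2 ratio of Ifit3 had opposite signs in the cell types, at -0.065 in enterocyte-like cells and 0.045 in ISC- and TA-like cells (from 12 to 23 UMIs per library). In ISC- and TA-like cells Arid3a cKO 2 was level with WT (0.571 against 0.570 CPM). In enterocyte-like cells the ratio of Arid3a cKO 1 was -0.016. The difference was not tested, and the intervals of all 3 libraries overlapped in both cell types.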

How the results depend on the processing

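The use of removed barcodes, the step that left out the top 1% of cells by member UMIs and the values without 1 leading cell were chosen after seeing the data. No paired analysis was possible because Arid3a cKO and WT have 1 number in common. Leaving out a library leaves no residual degrees of freedom, so counts of called genes were not recomputed that way. Over 18 results 172 values were recomputed, of which 6 reversed and 42 shifted past 1 SD of the cKO libraries (a factor of 1.5 for counts), and 124 did neither. That SD comes from 2 libraries and can be small by chance.

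All 6 reversals came from the barcodes removed for over 15% mitochondrial UMIs, with a member median of 0.17 and log2 ratios of 0.42 for Isg15, 0.020 for Rsad2, 0.25 for Ddx60, 0.091 for Trim30a and 0.40 for Apol9a. The cause was not tested. The median over all kept cells was -0.36 at a pseudocount of 1 CPM, as follows from members near 5 CPM, and the enterocyte median -0.26 with equal weight to each cluster. In ISC and TA cells the median was -0.059 at a pseudocount of 1 CPM and -0.019 per UMI that is not mitochondrial. Leaving out either cKO library gave medians of -0.257 to -0.150 over all kept cells, -0.221 to -0.146 in enterocytes and -0.065 to -0.064 in ISC and TA cells, and a difference of -2.39 to -0.777 points in cells with at least 3 members. That difference was -4.89 points without thinning, -5.15 for at least 2 members, -3.93 with 500 genes and 25% mitochondrial UMIs and -2.86 with 10%.

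Of all genes 116 were called over all kept cells (40 higher, 76 lower), 677 without the filter on low counts, 70 without Scrublet doublets and 261 without the 5% of cells with the highest Scrublet scores, and with DESeq2 58 were higher and 62 lower. In enterocytes 335 were called, 87 with DESeq2 and 541 without the filter. In ISC and TA cells 215 were called (103 higher, 112 lower), 43 with DESeq2 and 88 with library totals (32 higher, 56 lower). Of the other ISGF3 targets, 1 was called lower over all kept cells, 2 with DESeq2, 8 without the filter and 5 without the top 5% of scores. Zbp1 was among them in each case. Depth limits Trim30a, Apol9a, Rsad2 and Ifit3 outside enterocytes, where a library often held under 25 UMIs.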

Other observations

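Member levels were higher in the removed barcodes than in kept cells of the same library. In CPM of UMIs that are not mitochondrial, Irf7 was at 111, 127 and 96.8 in the removed barcodes, Ddx60 at 57.4, 79.2 and 55.8, and Isg15 at 67.2, 66.6 and 48.8. Ifit1 stayed highest in WT, at 30.1, 39.3 and 46.1, as it was in kept cells. Oasl2 was at 49.9, 65.3 and 58.9 and Ifit1bl1 at 22.6, 42.5 and 40.5, so that WT lay between the cKO libraries for both. Which cell types these barcodes come from was not examined.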
